A study of Arabidopsis thaliana with 12 samples.

Results

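The comparison set 9 arrays of Arabidopsis thaliana seedlings that were elongating in darkness, per the study's design text, against 3 arrays of seedlings that were not. The growing arrays were 3 of wild type Columbia (Col) sampled early, 3 of CCA1-34 sampled early and 3 of CCA1-34 sampled late. The non-growing arrays were 3 of Col sampled late. These 12 arrays are the whole series, and membership was read from the sample titles. Of 22746 probe sets tested, 12072 differed from Col late in the same direction in each growing group. Genes are reported as higher or lower only from among these, while counts, list medians and tests over all probe sets also cover those of mixed sign.

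All seedlings were whole, were grown on medium with 3% sucrose, and were first kept for 4 short days (8 h of light, 16 h of darkness). For 3 days after that, light of 160 min alternated with darkness of 320 min. Each sample was taken 120 min after lights-off. "Early" is 280 min and "late" 1240 min after dawn. Replicates 1, 2 and 3 of every group were taken on successive days, from seedlings of 5, 6 and 7 days. A dish held about 100 seedlings, and the labels do not say whether dishes were separate sowings. The p-values thus cover the variation among these 12 samples alone, which includes seedling age and sampling day and may otherwise be technical. CCA1-34 is a single arrhythmic line that overexpresses CCA1, a Myb factor of the morning clock. The promoter of its transgene is not given in the sources used here. The files hold no measurement of growth, so the growing state is the design text's. Col late is the only group that is both wild type and late, and growth cannot be told apart from that combination. Against it, Col early differed in time of day, CCA1-34 late in genotype and CCA1-34 early in both. The 3 comparisons share the Col late arrays and are therefore not independent of each other.

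Seedling stems, the hypocotyls, elongate in the dark and late at night through the basic helix-loop-helix (bHLH) factors PIF4 and PIF5, whose proteins are degraded in light by way of phytochrome B. The circadian clock limits when PIF4 and PIF5 are transcribed, and evening clock proteins repress them early in the night. PIF factors act on genes of auxin synthesis and response, on the PRE family of small bHLH proteins, and on cell wall genes, together with gibberellin and brassinosteroid signalling.

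Values were log2 RMA levels, on which 1 unit is a 2-fold difference. Array medians lay between 4.01 and 4.12, and the correlation between arrays of a group was 0.962 to 0.992. CCA1 itself read 8.46 to 10.18 in the 6 CCA1-34 arrays and 2.47 to 6.37 in the 6 Col arrays. Markers of green shoot and of root were both present, as a whole seedling should have. The mean of 16 root markers spanned 4.98 to 5.74 in Col early, 5.10 to 5.68 in CCA1-34 early, 4.84 to 5.56 in CCA1-34 late and 4.85 to 5.89 in Col late. In whole seedlings, fewer cells of a type and less RNA per cell cannot be told apart.

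A pair of growing arrays stood apart from their groups. In Col early replicate 3 the mean of 17 shade-induced genes was 4.19, against 5.82 and 5.91 in the other Col early arrays. In CCA1-34 early replicate 2 it was 4.65, against 5.83 and 6.27. The 3 Col late arrays read 4.03, 4.40 and 4.82, so on these genes both arrays lay among the non-growing ones. Light and photoperiod genes were high in the same arrays, with means of 6.12 and 6.48 where the other 10 arrays lay between 5.01 and 5.57. Genes of dark and sugar starvation were low there, at 4.62 and 4.55. The list of handling, touch and heat genes was highest in Col early replicate 3, at 5.17. The part of these differences in the results was not tested. Counts are given with and without this pair.

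**Figure D1:**
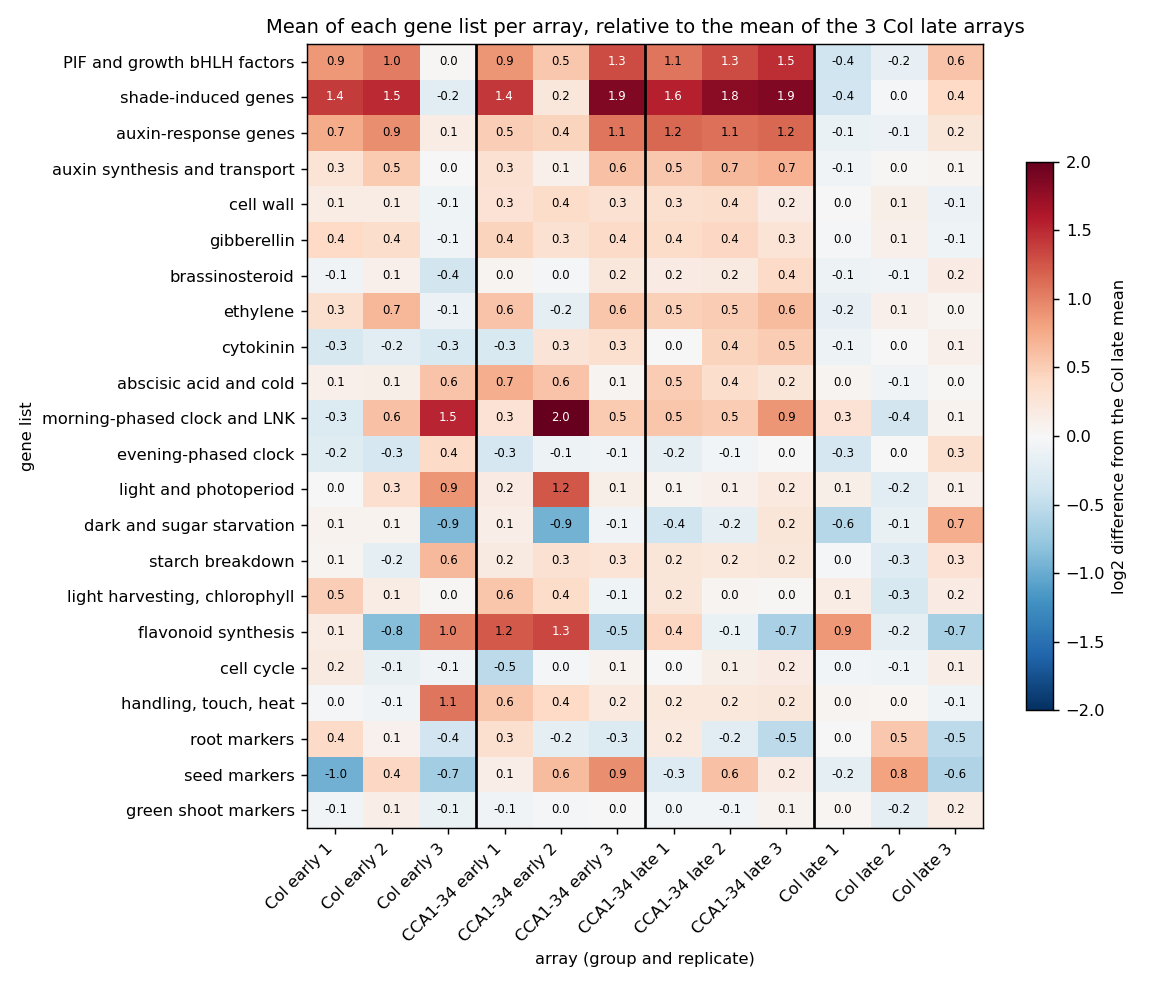
Each cell is the mean log2 level of a gene list (rows) on an array (columns) minus the mean of the 3 Col late arrays. Shade-induced genes are 1.4 to 1.9 above Col late on 7 of the 9 growing arrays, and near Col late on Col early replicate 3 and CCA1-34 early replicate 2.

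Over all 12 arrays, 4 probe sets passed the test of growing against Col late (adjusted p under 0.05, with the same sign in each growing group). The 3 higher ones were ACBP6, AT1G73480 and ACS6, and the lower one was AT1G72430. They make up 0.0132% and 0.0044% of the probe sets tested. An unadjusted p under 0.05 in that test was reached by 1210 probe sets, which is 5.32%. This is close to the share of 0.05 that such a threshold gives with no differences at all. No probe set passed when the adjusted test was asked of each of the 3 comparisons (limma, with the largest of 3 p-values adjusted). The lowest such p was 0.295, for AT1G73480. A looser description asked for the same sign and an unadjusted p under 0.05 in each comparison. It held for 115 higher probe sets (0.506%) and 62 lower ones (0.273%), and the 177 together are called the common set here. Just inside and outside the adjusted threshold lay ACS6 at 0.0319 and MGL at 0.0628. MGL, a methionine gamma-lyase gene, is named for that position only. At the edge of the common set the largest of the 3 p-values was 0.0499 for AT5G65000, inside, and 0.0502 for AT1G73655, outside.

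AT1G73480 encodes a predicted alpha/beta hydrolase, a broad family of enzymes that cut ester and related bonds. It read 6.28, 6.20 and 6.00 in Col early. It read 6.65, 5.93 and 5.42 in CCA1-34 early, and 5.57, 5.94 and 5.22 in CCA1-34 late. Col late read 3.42, 3.62 and 3.46. All growing arrays lay well above all Col late arrays, without overlap. The mean difference was 2.41 ± 0.22 (SE; adjusted p = 0.00532). Taken singly, the differences were 2.66 for Col early (adjusted p = 0.0293), 2.50 for CCA1-34 early (adjusted p = 0.0263) and 2.08 for CCA1-34 late (adjusted p = 0.0588). Both early comparisons thus passed alone and the late one did not. Without Col late replicate 1 the adjusted p was 0.0821, and it ranged from 0.00115 to 0.0821 over 19 alternatives.

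AT1G72430, listed in the reference as SAUR78, belongs to the small auxin-up RNA family, many of whose members promote cell expansion. It read 5.66, 5.85 and 5.41 in Col early, 5.65, 6.06 and 5.70 in CCA1-34 early, and 5.83, 5.50 and 5.68 in CCA1-34 late. In Col late it read 6.72, 6.83 and 7.10. The growing arrays covered a narrow band below Col late, with no overlap. The difference of -1.18 ± 0.13 (SE) passed with an adjusted p of 0.0216, and the 3 growing groups differed from Col late by -1.25, -1.08 and -1.21. Blocked on the sampling day, its adjusted p was 0.0524, and over 19 alternatives it ranged from 0.00592 to 0.0890. It was lost without any 1 of 7 arrays, among them each Col late array.

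ACS6 encodes an ACC synthase, which makes the precursor of ethylene. It read 4.01, 4.19 and 4.51 in Col early, 4.92, 4.68 and 4.99 in CCA1-34 early, and 5.10, 5.02 and 5.19 in CCA1-34 late. Col late was tight at 3.85, 3.79 and 3.83. No growing array overlapped Col late, but the Col early arrays were the nearest to it. The overall difference was 0.91 ± 0.11 (SE; adjusted p = 0.0319), made up of 0.41 in Col early, 1.04 in CCA1-34 early and 1.28 in CCA1-34 late. The Col early difference did not pass alone (adjusted p = 0.900). Differences among the growing groups had an unadjusted p of 0.00016 and an adjusted p of 0.693. The call was lost without any 1 of 9 arrays, and with the 9 arrays as 1 group its adjusted p was 0.443.

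ACBP6, which encodes a small cytosolic acyl-CoA-binding protein, met the rule through the CCA1-34 groups. It read 3.72, 3.86 and 3.74 in Col early and 3.70, 3.48 and 3.44 in Col late. The 6 CCA1-34 arrays read 10.72 to 11.16. Col early was thus 0.23 above Col late (adjusted p = 0.900), whereas the CCA1-34 groups were 7.48 and 7.38 above it. The mean difference of 5.03 ± 0.10 (SE; limma, adjusted p = 9.83e-10) rests on those groups, and its adjusted p was 0.848 with the 9 growing arrays as 1 group. It was the only probe set of 22746 that passed the adjusted test among the growing groups (limma, adjusted p = 1.78e-10), while 741 had an unadjusted p under 0.05. CCA1 behaved alike in direction. It was 1.08, 5.64 and 6.12 above Col late in the 3 growing groups, its arrays overlapped Col late, and it did not pass (adjusted p = 0.0820). The test among the growing groups (limma) gave CCA1 an unadjusted p of 9.09e-05 and an adjusted p of 0.689. Failing that test therefore does not show that the growing groups were alike.

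The 12 genes named in each direction were the 4 above and those of the common set whose growing arrays did not overlap Col late, ranked by the smallest of their 3 differences. The 4 above did not overlap Col late either. Over all probe sets, 0.673% lay wholly above and 0.334% wholly below. For 22 of the 24, the test among the growing groups did not reach an unadjusted p under 0.05. Over all 22746 probe sets only 741 reached it, so this does not set the 24 apart. In 10 of the 12 higher genes the Col late mean lay below the median of all values, 4.07, where RMA levels compress differences, so the sizes given may be too small.

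**Figure D2:**
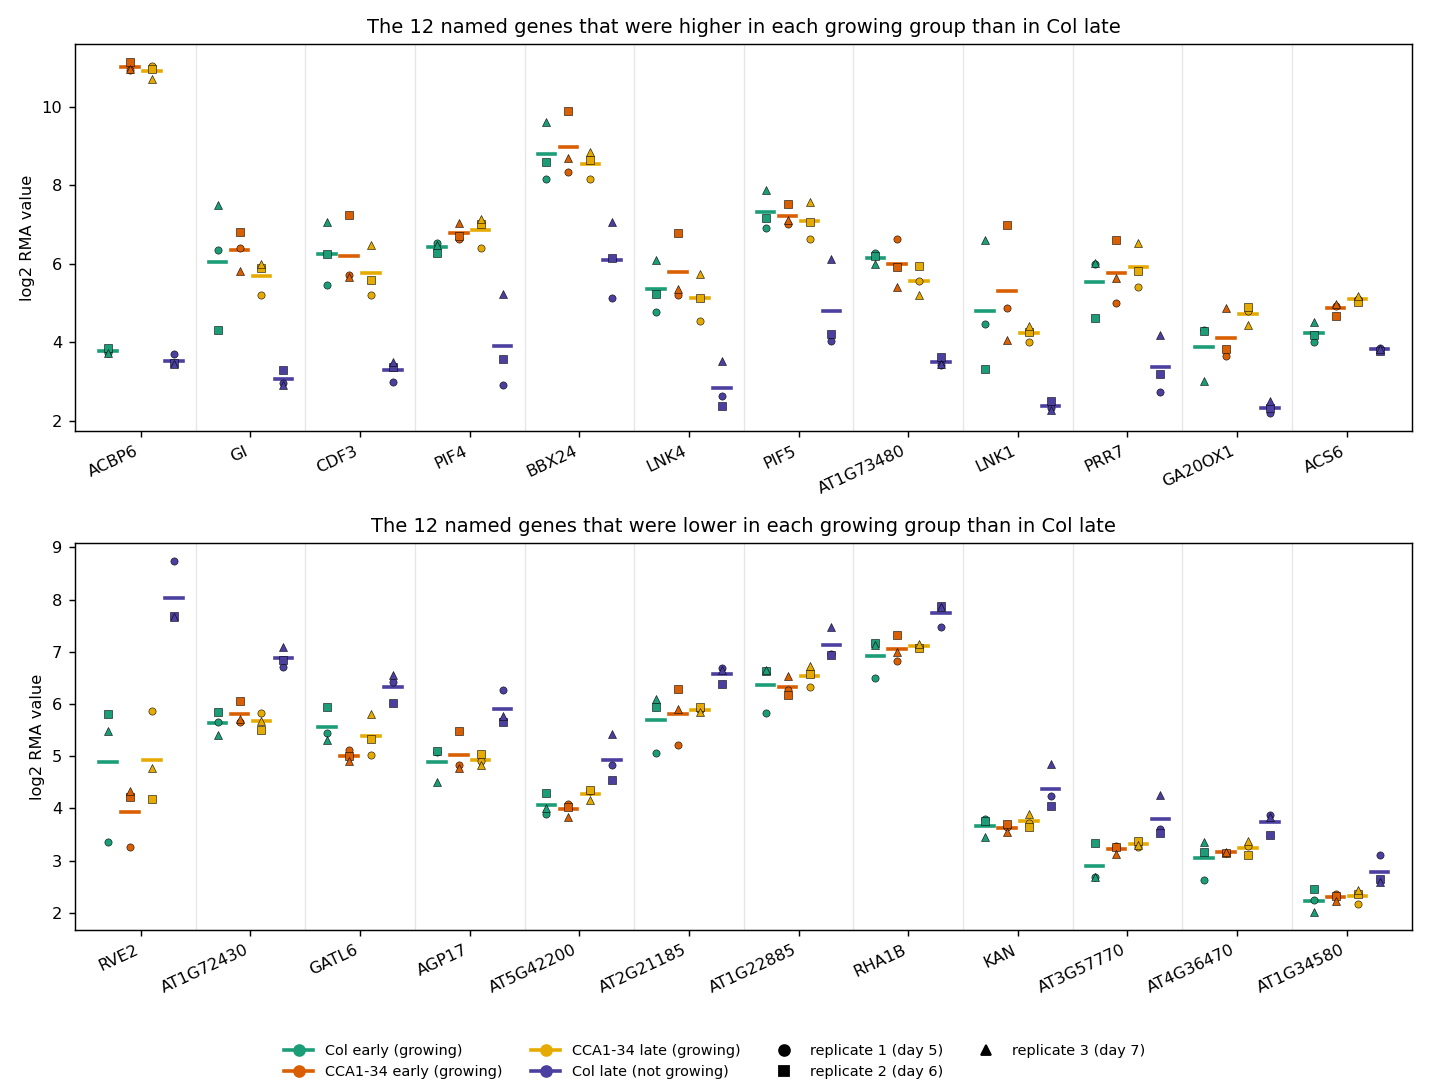
Log2 RMA value (vertical axis) of the 24 named genes on each of the 12 arrays; colour marks the group, symbol the replicate and day, and the bar the group mean. The growing arrays of each gene lie on one side of the Col late arrays, and ACBP6 is separated by genotype, with Col early close to Col late.

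PIF4 and PIF5 were high in every growing array. PIF4 read 6.52, 6.27 and 6.49 in Col early, 6.64, 6.70 and 7.04 in CCA1-34 early, and 6.40, 7.02 and 7.15 in CCA1-34 late. In Col late it read 2.90, 3.58 and 5.23. The growing arrays were close together (SD 0.31 over 9 arrays), and the Col late arrays were not (SD 1.19, n = 3). The 3 growing groups were 2.52, 2.89 and 2.95 above Col late, and the test among the growing groups gave an unadjusted p of 0.620. The mean difference of 2.79 ± 0.38 (SE) had an adjusted p of 0.0649. With the day as a block it was 0.0460, and over 19 alternatives it ranged from 0.000420 to 0.208, the lowest without Col late replicate 3.

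PIF5 was likewise above every Col late array in all 9 growing arrays. It read 6.92, 7.17 and 7.88 in Col early, 7.03, 7.53 and 7.12 in CCA1-34 early, and 6.64, 7.07 and 7.58 in CCA1-34 late. Col late read 4.04, 4.22 and 6.13. Col late replicate 3 again lay nearest to the growing arrays. The difference was 2.42 ± 0.40 (SE; adjusted p = 0.0987). Within the days it was 2.83, 3.03 and 1.39, where that of PIF4 was 3.61, 3.09 and 1.67. Without Col late replicate 3, PIF5 differed by 3.09 (adjusted p = 0.00558, in a range of 0.00558 to 0.592 over 19 alternatives).

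Among the other 12 measured genes of the PIF and growth bHLH list, PRE1, a small bHLH protein that counters growth inhibitors, was in the common set. It read 5.97, 5.30 and 3.57 in Col early, 5.00, 5.83 and 6.96 in CCA1-34 early, and 6.79, 7.10 and 6.63 in CCA1-34 late, against 3.21, 3.23 and 4.11 in Col late. Col early replicate 3 lay within the Col late range, and PRE1 did not pass (2.39 ± 0.49, SE; adjusted p = 0.246). In all, 9 of 14 list members were higher in each growing group, none was lower in each, and none passed the adjusted test. The list's median difference was 0.64, where that of all probe sets was 0.003. Over all probe sets, 26.8% were higher and 26.3% lower in each growing group.

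Shade-induced genes, which PIF factors switch on when plants sense neighbours or darkness, had the largest list median, 1.35. Of 17 measured, 16 were higher in each growing group and 3 were in the common set, and none passed. IAA19, an Aux/IAA auxin repressor, read 7.43, 7.26 and 5.16 in Col early, 6.89, 6.09 and 7.34 in CCA1-34 early, and 7.39, 7.27 and 7.00 in CCA1-34 late. Col late read 4.94, 5.24 and 5.27. The Col early replicate 3 value lay inside the Col late range (1.72 ± 0.42, SE; adjusted p = 0.437). CKX5, a cytokinin oxidase, did not overlap Col late, at 3.70 to 5.93 (median 4.39) against 2.74, 3.63 and 2.76, and did not pass (1.51 ± 0.35, SE; adjusted p = 0.334). The median of the shade list was 0.87 in Col early, 1.14 in CCA1-34 early and 1.93 in CCA1-34 late.

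Of 23 auxin-response genes, 18 were higher in each growing group and none lower in each (median 0.71). The common set held 4, and none passed. GH3.5, whose enzyme joins auxin to amino acids, read 8.24, 8.66 and 8.50 in Col early, 8.58, 7.49 and 8.61 in CCA1-34 early, and 8.84, 8.51 and 8.59 in CCA1-34 late. Col late read 6.82, 7.21 and 6.64. CCA1-34 early replicate 2 was the lowest growing array and still lay above Col late (1.56 ± 0.23, SE; adjusted p = 0.0802). SAUR9, another small auxin-up RNA, read 2.59 to 4.42 (median 4.12) in the growing arrays and 2.10, 2.33 and 1.93 in Col late. Its lowest growing values, 2.73 and 2.59, came from the pair of arrays that stood apart (1.62 ± 0.31, SE; adjusted p = 0.188). IAA17 differed by 0.50 ± 0.12 (SE; adjusted p = 0.367) and overlapped. AT1G72430, the SAUR gene that passed, lay in the opposite direction to these genes.

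Of 14 genes of auxin synthesis and transport, 8 were higher in each growing group (median 0.27). YUC8, a flavin monooxygenase that completes auxin synthesis, was in the common set. It read 5.11, 5.58 and 4.29 in Col early, 5.15, 4.53 and 5.75 in CCA1-34 early, and 5.50, 5.92 and 6.19 in CCA1-34 late. Col late read 3.27, 3.63 and 4.06, without overlap (1.68 ± 0.31, SE; adjusted p = 0.136). WAG2, a kinase acting on auxin transport, and YUC2 were higher by 1.06 and 0.59, with arrays that overlapped Col late and adjusted p-values of 0.580 and 0.912.

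Gibberellin genes were led by GA20OX1, which encodes a gibberellin 20-oxidase of the synthesis pathway. It read 4.32, 4.29 and 3.02 in Col early, 3.66, 3.83 and 4.87 in CCA1-34 early, and 4.81, 4.91 and 4.43 in CCA1-34 late. Col late was low at 2.19, 2.33 and 2.50. No array overlapped (1.90 ± 0.31, SE; adjusted p = 0.0951). GA3OX1, the next enzyme, overlapped Col late at 4.91 to 7.20 against 3.83 to 5.26, and RGA, a DELLA repressor of growth, differed by 0.32 (adjusted p-values of 0.833 and 0.576). In the list, 13 of 21 genes were higher and 3 lower in each growing group, with a median of 0.21.

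Cell wall genes gave smaller differences. Of 30, 15 were higher and 5 lower in each growing group (median 0.18), and 3 were in the common set, all higher. These were the expansins EXPA3 (0.59 ± 0.14, SE) and EXPA11 (0.60 ± 0.17), which loosen walls, and XTH17 (0.94 ± 0.21), which cuts and rejoins xyloglucan. Their adjusted p-values were 0.385, 0.576 and 0.295, and each overlapped Col late on at least 1 array. Among the lower named genes, GATL6, a glycosyltransferase-like gene of wall polysaccharides, read 4.91 to 5.94 (median 5.32) in the growing arrays and 6.42, 6.03 and 6.55 in Col late (-1.01 ± 0.18, SE; adjusted p = 0.134). AGP17, an arabinogalactan protein of the cell surface, read 4.51 to 5.48 (median 4.91) against 6.27, 5.66 and 5.77 (-0.95 ± 0.19, SE; adjusted p = 0.202). Both were below Col late on every growing array.

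Ethylene was the only list with a member that passed, ACS6, 1 of 15. In this list 11 genes were higher and 2 lower in each growing group (median 0.38). ACS8, another ACC synthase, read 5.08, 5.65 and 3.23 in Col early, 4.12, 2.77 and 5.32 in CCA1-34 early, and 5.10, 5.19 and 5.62 in CCA1-34 late. Col late read 2.89, 2.83 and 3.37. Col early replicate 3 and CCA1-34 early replicate 2 were the 2 growing arrays at the Col late level (1.64 ± 0.54, SE; adjusted p = 0.791).

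In the remaining hormone lists 1 gene, NCED3, was in the common set. Of 14 brassinosteroid genes, 3 were higher and 3 lower in each growing group (median 0.03). Of these, BR6OX2, DET2 and BAS1 differed by 0.69, 0.35 and 0.49, with adjusted p-values of 0.821 to 0.956. Of 13 cytokinin genes, 3 were higher and 1 lower (median -0.08), CKX5 being the largest. Of 16 genes of abscisic acid and cold, 9 were higher and none lower (median 0.28). NCED3, the rate-limiting enzyme of abscisic acid synthesis, read 4.58 to 6.02 (median 5.17) in the growing arrays and 4.49, 4.25 and 3.60 in Col late (1.06 ± 0.30, SE; adjusted p = 0.616). CBF1, a cold-response factor, did not overlap either but lay near the lower end of the scale, at 2.16 to 2.83 against 2.06 to 2.14.

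**Figure D3:**
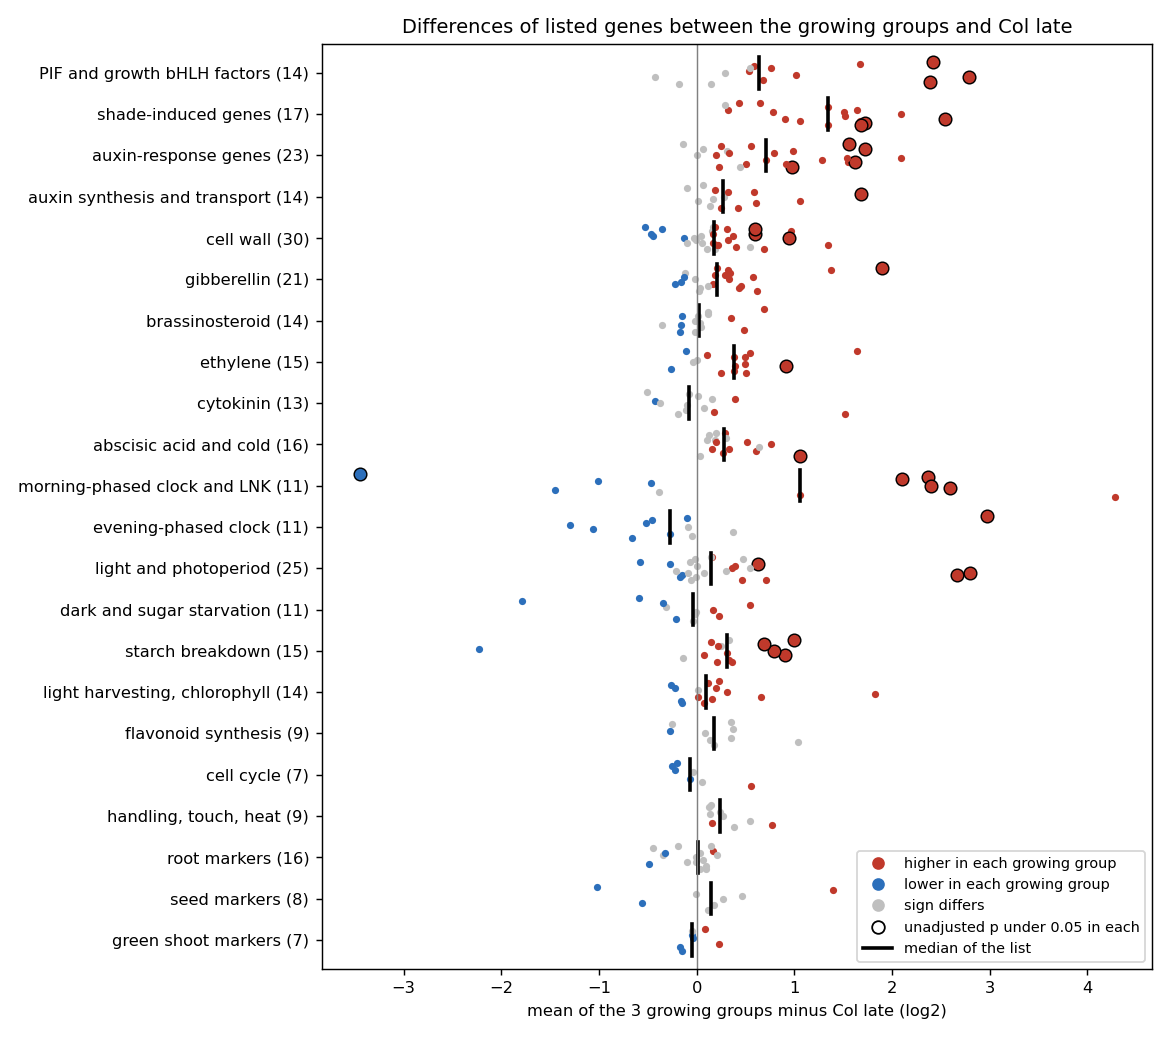
Each point is a listed gene, placed by the mean of the 3 growing groups minus Col late (log2, horizontal axis), with the number measured beside each list name; outlined points passed an unadjusted p of 0.05 in each comparison and black bars are list medians. Medians run from -0.28 for the evening clock to 1.35 for shade-induced genes, and RVE2 at -3.45 and CCA1 at 4.28 are the farthest points.

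Clock genes lay in both directions. RVE2, a Myb-like factor of the CCA1 family, read 3.36, 5.80 and 5.49 in Col early, 3.26, 4.23 and 4.33 in CCA1-34 early, and 5.86, 4.18 and 4.76 in CCA1-34 late. Col late read 8.75, 7.70 and 7.66, above every growing array. Its difference of -3.45 ± 0.53 (SE; adjusted p = 0.0872) was the largest in the common set, with -3.15, -4.10 and -3.10 in the 3 groups. PRR7, a pseudo-response regulator that represses CCA1, read 4.62 to 6.62 (median 5.82) in the growing arrays and 2.74, 3.20 and 4.18 in Col late (2.37 ± 0.43, SE; adjusted p = 0.136).

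The LNK genes, whose products work with Myb factors of the RVE family as coactivators, were also high. LNK4 read 4.78, 5.24 and 6.10 in Col early, 5.21, 6.79 and 5.37 in CCA1-34 early, and 4.54, 5.13 and 5.75 in CCA1-34 late. Col late read 2.64, 2.38 and 3.52 (2.59 ± 0.41, SE; adjusted p = 0.0887). LNK1 read 4.48, 3.32 and 6.62 in Col early, 4.88, 6.98 and 4.06 in CCA1-34 early, and 4.02, 4.27 and 4.41 in CCA1-34 late, against 2.33, 2.51 and 2.29 (2.40 ± 0.66, SE; adjusted p = 0.576). The 2 highest values of both genes came from the pair of arrays that stood apart. In the morning list 6 of 11 genes, among them the overexpressed CCA1, were higher and 4 lower in each growing group (median 1.06). The common set held 4 of the higher ones and RVE2.

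The evening clock list pointed the other way for most members, with 7 of 11 lower in each growing group and 1 higher (median -0.28). Leaving out Col late replicate 1 made this median -0.47, and leaving out its replicate 3 made it -0.09. The gene that was higher was GI, a large protein of the clock and of day-length sensing. GI read 6.36, 4.33 and 7.50 in Col early, 6.40, 6.81 and 5.82 in CCA1-34 early, and 5.20, 5.89 and 6.01 in CCA1-34 late. Col late was tight at 2.98, 3.29 and 2.92, with no overlap (2.98 ± 0.51, SE; adjusted p = 0.112). ELF4, a component of the evening complex that represses PIF4 and PIF5, read 2.78 to 3.43 on 8 growing arrays, 5.42 on Col early replicate 3, and 4.29, 5.22 and 4.47 in Col late (-1.30 ± 0.39, SE; adjusted p = 0.717). JMJD5, a clock-associated jumonji-domain protein, read 3.54 to 4.49 on the same 8 arrays, 5.94 on that array, and 4.45, 5.65 and 5.92 in Col late (-1.07 ± 0.37, SE; adjusted p = 0.808).

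Light and photoperiod genes included a trio in the common set, all higher and without overlap. CDF3, a Dof factor that represses the flowering gene CONSTANS, read 5.48, 6.25 and 7.06 in Col early, 5.72, 7.25 and 5.66 in CCA1-34 early, and 5.21, 5.60 and 6.49 in CCA1-34 late. Col late read 2.98, 3.38 and 3.50 (2.79 ± 0.41, SE; adjusted p = 0.0802). BBX24, a B-box factor of light signalling, read 8.17 to 9.90 (median 8.65) against 5.13, 6.14 and 7.06 (2.67 ± 0.44, SE; adjusted p = 0.0987). The 2 highest values of CDF3 and of BBX24 came from the pair of arrays that stood apart. Without that pair the differences were 2.49 for CDF3 and 2.38 for BBX24. PHYB, the phytochrome through which light removes PIF proteins, had a small and even difference. It read 6.77 to 7.08 (median 7.00) in the growing arrays and 6.58, 6.29 and 6.17 in Col late (0.62 ± 0.10, SE; adjusted p = 0.0887). Of 25 genes in the list, 9 were higher and 4 lower in each growing group (median 0.15).

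Of 15 genes of starch breakdown, 11 were higher and 1 lower in each growing group (median 0.31), and 4 were in the common set. ISA3, a debranching enzyme, read 5.01 to 5.67 (median 5.40) against 4.43, 4.66 and 4.64 (0.80 ± 0.14, SE; adjusted p = 0.113). DPE1, a disproportionating enzyme that rebuilds glucans, read 6.27 to 6.82 (median 6.49) against 5.80, 5.33 and 6.27, almost touching, and AMY3, an alpha-amylase, differed by 1.00 with overlap (adjusted p-values of 0.538 and 0.437). Of 11 genes of dark and sugar starvation, 3 were higher and 4 lower in each growing group (median -0.03). DIN10, which is induced in darkness when sugar is short, read 4.77 to 8.65 (median 7.11) against 7.96, 8.51 and 9.69 (-1.78 ± 0.63, SE; adjusted p = 0.815). DIN4 and DIN11 differed by -0.60 and 0.17, both with overlap.

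Light harvesting and chlorophyll genes differed little, with 9 of 14 higher and 4 lower in each growing group (median 0.10). CAO, CHLH and LHCA3 differed by 0.66, 0.31 and 0.16, all with overlap. Of 9 flavonoid genes 8 had no common sign, and of 7 cell cycle genes 1 was higher and 4 lower in each growing group (medians 0.18 and -0.07). Of 9 genes of handling, touch and heat, 2 were higher in each growing group (median 0.24). HSP70, the heat shock gene of that list, read 8.82 in Col early replicate 3 and 4.40 to 7.42 elsewhere.

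Marker lists of other tissues had medians of 0.01 for 16 root genes, 0.15 for 8 seed genes and -0.04 for 7 green shoot genes. The sign of each turned when 1 Col late array was left out. The root median lay between -0.22 (without replicate 3) and 0.21 (without replicate 2). The seed median lay between -0.25 (without replicate 1) and 0.75 (without replicate 2), and the green shoot median between -0.19 (without replicate 2) and 0.10 (without replicate 3). None of their members passed or was in the common set. Of the seed genes, SESA1 and CRU2, which encode storage proteins, were lower in each growing group, with differences of -1.02 and -0.56, and EM1, a late embryogenesis gene, was higher by 1.40 (adjusted p-values of 0.439, 0.808 and 0.266). All 3 overlapped Col late. The green shoot genes GAPA1 and RCA differed by -0.17 and -0.16, and the root genes EXPA18 and GL2 by -0.49 and -0.32.

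The lower named genes not yet described differed by less than 1 on the log2 scale. RHA1B, a RING-type ubiquitin ligase gene, read 6.49 to 7.33 (median 7.09) against 7.47, 7.88 and 7.87 (-0.71 ± 0.16, SE; adjusted p = 0.334). KAN, or KANADI1, which sets the lower side of leaves, read 3.44 to 3.88 (median 3.69) against 4.23, 4.04 and 4.85 (-0.69 ± 0.15, SE; adjusted p = 0.302). The other 6, AT5G42200, AT2G21185, AT1G22885, AT3G57770, AT4G36470 and AT1G34580, lay between -0.83 and -0.50 with adjusted p-values of 0.194 to 0.720. In 4 of the 12 lower named genes the growing mean was under the median of all values.

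The common set as a whole was uneven in size. The median difference was 0.71 for its 115 higher and -0.59 for its 62 lower probe sets. In it, 23 higher and 3 lower ones differed by 1 or more in each growing group. Among all probe sets tested, 39 were higher and 18 lower by that much in each growing group. Of the 177, 101 did not overlap Col late on any array, 74 of them higher. On each of the 3 days 174 had the same sign, and 12 differed among the growing groups at an unadjusted p under 0.05. Over all 22746 probe sets tested, 741 differed among these groups at that p. Genes of the lists supplied 28 members. Both thresholds selected on these same values, so the sizes, the lack of overlap and the agreement by day describe the set and test nothing.

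Leaving out Col early replicate 3 and CCA1-34 early replicate 2 changed the count of probe sets that passed from 4 to 65. Of these, 53 were higher (0.233%) and 12 lower (0.0528%), and all 4 from the full set were kept. The pair was known from earlier results of these data to be low in shade-induced genes, so a larger difference in that list without it follows from the choice. Against the other arrays of their groups, the pair (Col early replicate 3 first) also read -0.69 and -0.34 in auxin response. In ethylene it read -0.615 and -0.747, and in the PIF and growth bHLH list -0.93 and -0.56. Passes in these lists depend on the same choice and are no separate support. In the morning clock and the light and photoperiod lists the pair was high. Passes there, and in every other list, depend on the choice of arrays as well. LNK1, for example, had a difference of 2.40 with all arrays (limma, adjusted p = 0.576) and 1.82 without the pair (adjusted p = 0.0343). Of the listed genes, 23 higher and 2 lower passed. The shade list had 7 of 17, auxin response 6 of 23, the morning clock 4 of 11, and PIF and growth bHLH, ethylene, light and photoperiod, and auxin synthesis and transport 2 each. The morning clock count includes CCA1, the gene overexpressed in CCA1-34, whose smallest of 3 differences was then 0.07. PIF4 differed by 2.79 (adjusted p = 0.0453), GI by 2.66 (adjusted p = 0.0380), GA20OX1 by 2.09 (adjusted p = 0.0120), IAA19 by 2.08 (adjusted p = 0.00108) and GH3.5 by 1.67 (adjusted p = 0.00429). On the lower side BAM3, of the starch breakdown list, differed by -3.16 (adjusted p = 0.0204) and ELF4 by -1.56 (adjusted p = 0.0194). The test in each of the 3 comparisons was then passed by 4, namely SAUR9, IAA19, ST2A and ARGOS, where it had been passed by none. ST2A, a sulfotransferase gene of the shade list, and ARGOS, an auxin-regulated gene of organ size, are named because they were among these 4. Of the common set's 177 members, 123 were shared with the 376 found without the pair.

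Leaving out Col early replicate 3 alone gave 32 probe sets, and CCA1-34 early replicate 2 alone gave 10. Without Col early replicate 1 there were 8. The lowest count was 1, without Col late replicate 1, and it was 2 without CCA1-34 early replicate 1 or 3, or without CCA1-34 late replicate 2 or 3. Without Col late replicate 2 the common set grew to 601.

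List medians depended on single arrays to unequal degrees, with every array left out in turn. The shade median lay between 1.10 and 1.61, that of the PIF and growth bHLH genes between 0.59 and 0.89, of auxin response between 0.59 and 0.82 and of the morning clock between 0.90 and 1.36. Those of the cell wall (0.13 to 0.25) and of abscisic acid and cold (0.22 to 0.32) also stayed within 1.5 times of the full value. The ethylene median was 0.21 without Col late replicate 1. Those of starch breakdown and of auxin synthesis and transport were both 0.18 without Col late replicate 2, and that of gibberellin was 0.33 without Col late replicate 3. The handling median was 0.12 without Col early replicate 3. The light and photoperiod median was 0.01 without CCA1-34 early replicate 2, 0.05 without Col early replicate 3, and -0.11 without both of these arrays. Among the Col late arrays, leaving out replicate 2 gave 0.06 and leaving out replicate 1 gave 0.24. The sign turned for dark and sugar starvation, from -0.46 without Col late replicate 1 to 0.15 without Col late replicate 3. It turned for flavonoid synthesis, from -0.17 without Col late replicate 3 to 0.82 without Col late replicate 1. Medians of brassinosteroid (-0.007 to 0.08), cytokinin (-0.13 to -0.002), cell cycle (-0.13 to -0.02) and light harvesting genes (0.01 to 0.18) lay near 0 throughout, and the first turned sign without Col late replicate 2.

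**Figure D4:**
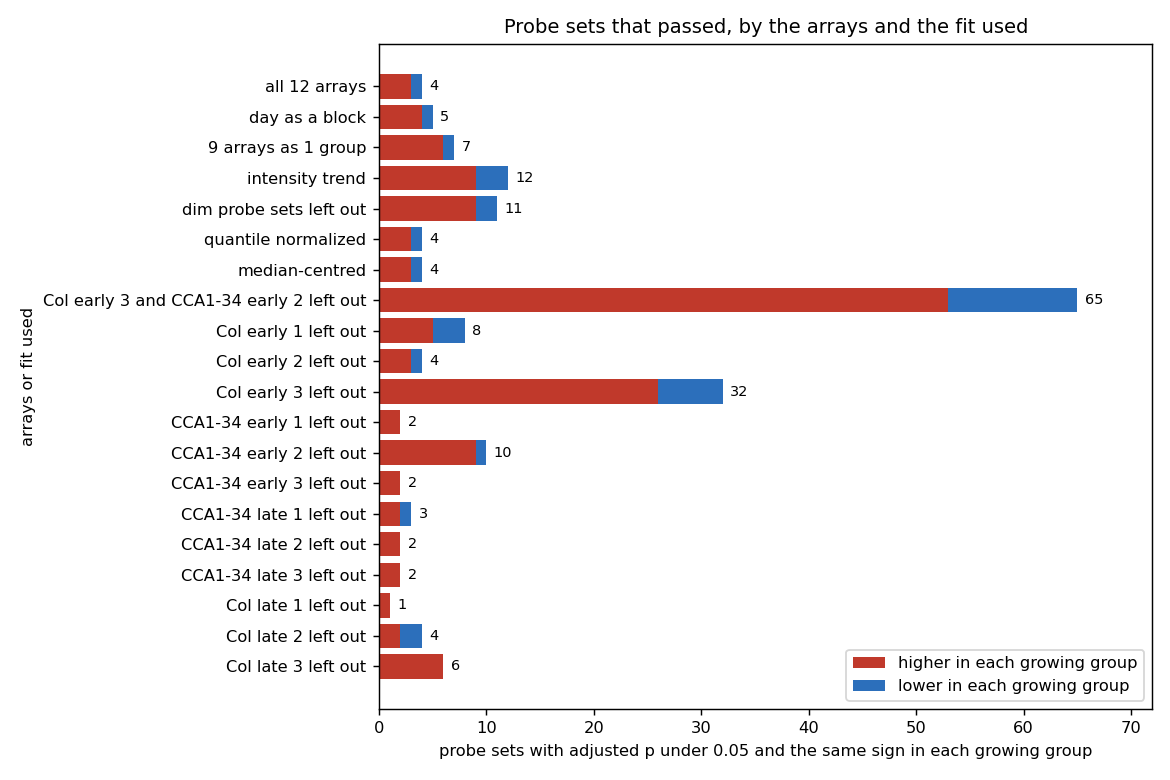
Bars give the number of probe sets with an adjusted p under 0.05 and the same sign in each growing group (horizontal axis, from 0), by the arrays and the fit used; red is higher and blue lower. The count is 4 with all 12 arrays and 65 without Col early replicate 3 and CCA1-34 early replicate 2.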

How the data were processed

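Total RNA from whole seedlings (5 ug) was labelled and measured on 12 Affymetrix arrays. The deposited values are log2 levels made by RMA, per the submitters' processing notes; no version or setting of it is named there. RMA borrows strength across arrays and compresses differences near background, and arrays keep no depth, so the number of arrays and their spread limit the precision.

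From the 22810 probe sets, 64 controls were left out, with no filter on level in the main fit. Of the 22746 tested, 21361 have 1 locus, and 21048 of these were found in the TAIR10.1 gene table. Probe sets with several loci (885) or none (500) were tested and not named. Group means were fitted with limma 3.58.1 in R 4.3.3 (8 residual degrees of freedom; median residual SD 0.201). The mean of the 3 growing groups was compared with Col late, as was each group alone, and differences among the growing groups were tested with limma's F statistic. All adjusted p-values are limma's with Benjamini-Hochberg adjustment over all 22746. The fit was tested on simulated data with known differences and independent noise on each array. The simulation had no correlation between same-day samples and no arrays that stood apart, so it does not cover those features.

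Named genes were 12 in each direction (the probe sets that passed first, then those with an unadjusted p under 0.05 in each comparison and no overlapping arrays, by the largest smallest-of-3 difference), up to 3 from each of 22 gene lists by the lowest p among genes with a common sign, and PIF4, PIF5 and CCA1. The members and lists were chosen with earlier results of these data known. Of 348 list entries, 320 were measured, 3 names were not in the gene table and 25 had no single-locus probe set. Lists are described by counts and medians only.

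Replicate numbers are days of sampling per the labels, so they pair samples across groups. Deviations of same-day samples correlated between -0.317 and 0.505, above 0.1 in 12 of 18 pairs. The main fit did not use this pairing, and a fit with the day as a block is given as an alternative. Promoter motifs were not analysed here.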

Additional observations from a re-analysis of the deposited data

Results flagged for a closer look

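In ACBP6 the growing groups differed from each other (adjusted p = 1.78e-10 in limma's F-test). Col early was 0.23 above Col late, and the CCA1-34 groups were 7.48 and 7.38 above it.

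Over the 76 named genes, 7 had 1 of the 9 growing arrays far from the other 8 by Dixon's criterion, which chance alone meets in about 1 group in 20. Of these, 3 came from Col early replicate 3. There ELF4 read 5.42 where the others read 2.78 to 3.43. JMJD5 read 5.94 where the others read 3.54 to 4.49. LHCA1, a light-harvesting protein of photosystem I, read 11.6 where the others read 12.1 to 12.4. ELF4 and JMJD5 on that array were at or above the Col late level, and LHCA1 was below it.

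In CCA1-34 early replicate 2, GH3.5 read 7.49, below the 8.24 to 8.84 of the other growing arrays. In CCA1-34 early replicate 1, the cytokinesis gene KNOLLE read 5.46 (others 6.39 to 6.78) and the stress-response factor WRKY40 read 3.48 (others 2.15 to 2.80). In Col early replicate 1, AT4G36470 read 2.62 (others 3.10 to 3.37).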

How the results depend on the processing

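Of the 76 named genes under 18 or 19 alternatives each, the sign turned in 4 cases, none of them near a threshold. With 1 array left out, EXPA18 lay between -0.882 and 0.055 (positive without Col late replicate 2), FLS1 between -0.634 and 0.239 (positive without Col late replicate 1) and MYB36 between -0.051 and 0.548 (-0.009 without Col late replicate 3). The median of 6 of the 22 lists also turned sign when 1 Col late array was left out: brassinosteroid, dark and sugar starvation, flavonoid, root, seed and green shoot. The 4 probe sets that passed became 5 with the replicate block (day), which lost AT1G72430 (adjusted p = 0.0524) and gained PIF4 and AT1G49230, the latter named for this only; the block changed no other call among the named genes. With the 9 growing arrays as 1 group 7 passed, with an intensity trend 12, without dim probe sets 11, and without the 2 early arrays that stood apart 65. In each of the 3 comparisons 0 passed, and 4 without those arrays. Differences among the growing groups went from 1 to 2 with the trend or without dim probe sets, and to 3 without the arrays. The common set had 222 higher and 154 lower without the arrays, and 28 lower without dim probe sets (115 and 62 in the main fit). Probe sets with no overlap numbered 416 higher and 236 lower without the arrays, and 91 and 41 without dim probe sets (153 and 76). Leaving out 1 array at a time gave 1 to 32 that passed, 0 to 2 in each comparison, 1 to 3 among the growing groups, 75 to 271 higher and 29 to 330 lower in the common set, and 176 to 717 higher and 85 to 705 lower without overlap. Fewer arrays leave fewer to overlap, and fewer probe sets were tested without dim ones; other causes were not tested. Quantile normalization and median centring each kept the 4 probe sets. Low signal limits genes near the lower end of the scale.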

Other observations

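Among the 177 probe sets of the common set, 167 had a placed gene, and 3 pairs of these were neighbours in the gene table. The number of such pairs to expect was not worked out. PIF4 (2.79) lay beside PAO2 (0.86), a polyamine oxidase gene. LNK4 (2.59) lay beside AT5G06970 (0.54), and LNK1 (2.40) beside AT5G64180 (0.92). Both members of each pair were higher in each growing group than in Col late. These genes were named after their values were seen.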
